A study of Mus musculus with 12 samples.

Results

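Postnatal maturation of control (CTRL) cardiomyocytes (CMs, the muscle cells of the heart) was described from 6 of the 12 RNA-seq libraries of the series. The comparison was CTRL P90 (postnatal day 90, young adult, 3 libraries) against CTRL P14 (postnatal day 14, 3 libraries), chosen by the sample titles. The 6 knockout (KO) libraries were used in the test of whether a stage difference differed with Srf status. They also entered an alternative fit of the CTRL comparison over all 12 libraries, and their Srf levels are given. CTRL mice were Srf-flox/+, so that Cre removes 1 copy of Srf, the gene of serum response factor, and leaves the other intact. They also carried a fluorescent protein reporter that Cre switches on, and they received AAV9-cTNT-Cre, an adeno-associated virus that drives Cre from the cardiac troponin T promoter. KO mice had both Srf copies floxed. Virus was given at P1 for collection at P14 and at P60 for collection at P90, so the CTRL cells differed between stages in age, in the time since injection and in the table they were counted in, and these cannot be told apart. The dose left the hearts mosaic. CMs were freed by collagenase perfusion and taken from the apex of the heart, and the fluorescent ones were sorted before RNA was extracted. The fluorescence stands in for Cre activity in each cell and does not report it exactly. Nothing in the sources used here says how many animals went into a library, so p-values measure the spread between libraries, which may be in part technical.

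A newborn mouse CM still divides, burns mainly glucose and lactate and carries fetal isoforms of its contractile proteins. After birth it leaves the cell cycle, grows in length and width, packs its cytoplasm with mitochondria and sarcomeres, turns to fatty acids, and replaces fetal isoforms by adult ones. P14 falls after most CM division has ended but before this remodelling is complete.

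Total counts were 16829857 to 21204212 in CTRL P14 and 9740389 to 21685078 in CTRL P90, so a count of 3 corresponds to 0.138 to 0.308 counts per 1000000 (CPM) in these 6 libraries. All CPM values were scaled with edgeR's TMM factors. Log2 CPM correlated at 0.969 to 0.988 (Pearson's r across genes, which are not independent) between libraries of one stage and at 0.929 to 0.947 between stages. Srf itself was at 61.7, 54.1 and 47.5 CPM in CTRL P14 and 68.2, 56.6 and 78.0 CPM in CTRL P90, and the groups overlapped (adjusted p = 0.148). In the KO libraries, scaled over all 12 libraries, it was at 32.1, 27.5 and 9.75 CPM at P14 and 32.9, 28.9 and 28.1 CPM at P90, below every CTRL library. Y-linked genes summed to 4756, 0 and 2 counts in CTRL P14 and 0, 0 and 3299 in CTRL P90, so the libraries differed in sex. In KO libraries they summed to 1, 0 and 4005 counts at P14 and 0, 0 and 0 at P90. Sex was not a covariate of any test, and its part in the differences was not tested.

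Between P14 and P90, CTRL CMs differed widely. Of 12294 genes tested with edgeR's quasi-likelihood test, 3607 (29.3%) passed an adjusted p under 0.05, 1779 of them higher (14.5% of the genes tested) and 1828 lower (14.9%) at P90. Counts of called genes in the lists below are to be set beside these shares. The median log2 fold change over all genes was -0.01. A change of at least 1 on the log2 scale was called for 608 genes that rose and 916 that fell, and of at least 3 for 60 and 87. Scaling to total counts alone moved the median of all genes to -0.13 and the calls to 1314 higher and 2368 lower, so every direction is relative to the bulk of genes. Leaving out 1 library moved the number of calls to 2300 without CTRL P14 replicate 1, 2067 without CTRL P90 replicate 1 and 2136 without CTRL P90 replicate 3. A subset of 1737 calls, 984 higher and 753 lower, held under every alternative that tested the gene. Changes named below belong to that subset unless the text says otherwise.

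**Figure D1:**
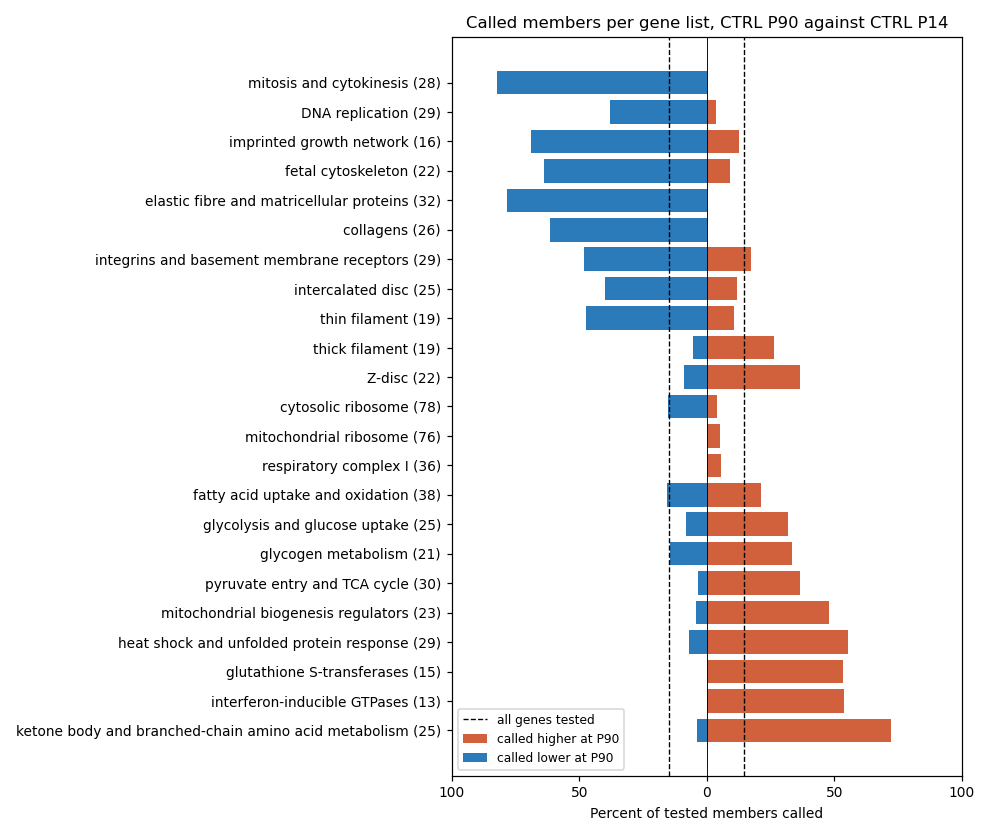
Percent of tested members of 23 gene lists (rows, with the number tested) that were called higher (right, red) or lower (left, blue) at P90, with dashed lines at the share of all genes tested, 14.5% higher and 14.9% lower. The mitosis, imprinted, cytoskeletal and matrix lists lie to the left and the ketone body and amino acid list, the chaperones and the mitochondrial regulators to the right.

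Before the gene groups, the identity of the cells was checked against marker lists. The 10 cardiomyocyte markers summed to 122298 to 130916 CPM at P14 and 108493 to 122972 CPM at P90, above every other marker list in each library. Among them Tnnt2, the troponin T of the heart, was at 8699, 11307 and 8845 CPM at P14 and 9508, 8990.1 and 10056 CPM at P90. Of the 10, 0 were called higher and 2 lower, with a median log2 fold change of -0.01 and a lowest of -0.79. Actc1, the cardiac actin, was 1 of the 2 (log2 fold change -0.55), and neither call held under every alternative. Markers of other cells were low but not equal between stages. The 12 fibroblast markers summed to 213 to 427 CPM at P14 and 177 to 193 CPM at P90, and 0 of 11 tested were called higher and 6 lower, 4 of them under every alternative. The 12 endothelial markers summed to 312 to 668 CPM at P14 and 274 to 351 CPM at P90, with 0 called higher and 8 lower of 12 tested, of which 1, Cldn5, held under every alternative. In both lists CTRL P14 replicate 2 was the lowest of the P14 libraries. Macrophage and leukocyte markers summed to 6.87 to 11.8 CPM at P14 and 8.30 to 17.4 CPM at P90, and 0 of 7 tested passed in either direction. Beta-s, a hemoglobin gene of erythroid cells, was at 15.4, 2.08 and 9.22 CPM at P14 and 0, 0 and 0.0761 CPM at P90. Of 11 pericyte and smooth muscle markers, 1 was called higher and 2 lower (27.3% called, near the 29.3% of all genes tested). Of these 11, 9 had a negative log2 fold change and the median was -0.67. The member called higher was Des, the desmin gene, which CMs express at 2114, 2227 and 1952 CPM at P14 and 2950.1, 2502 and 2682 CPM at P90, and its call did not hold under every alternative. Without Des, the other 10 summed to 106 to 224 CPM at P14 and 90.3 to 125 CPM at P90, a sum chosen after seeing the data. Epicardial, Schwann cell, erythroid and adipocyte lists stayed at or below 12.0 CPM in every library. The erythroid list did not include Beta-s, which alone reached 15.4 CPM at P14. Since these are bulk samples, fewer cells of a type and less RNA per cell cannot be told apart.

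**Figure D2:**
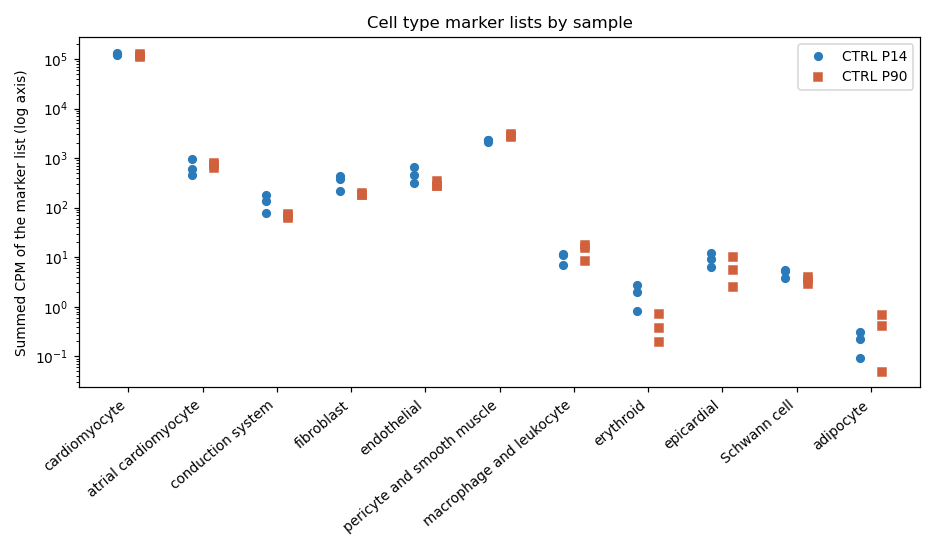
Summed CPM (log axis) of 11 marker lists in each CTRL library, with P14 as blue circles and P90 as red squares. Cardiomyocyte markers stay at or above 108493 CPM in all 6 libraries, and fibroblast markers reach 427 CPM at most and endothelial markers 668 CPM. The pericyte and smooth muscle sum includes Des, which makes up most of it.

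Atrial markers went the other way. Of 13 tested, 8 were called higher and 1 lower at P90 (69.2% called, against 29.3% of all genes tested). Their median log2 fold change was 1.26, although their sums overlapped, at 464 to 972 CPM at P14 and 625 to 794 CPM at P90. Myl7, the atrial regulatory light chain, was at 1.36, 1.23 and 0.0562 CPM at P14 and 13.9, 23.6 and 43.6 CPM at P90 (29.2-fold higher, adjusted p = 9.65e-04). Sln, the gene of sarcolipin, an inhibitor of the atrial calcium pump, was at 0.272, 0.616 and 0.0562 and 7.16, 11.2 and 22.8 CPM (41.2-fold higher, adjusted p = 5.45e-04). Mybphl, Dkk3 and Myl4 were called higher too, and for each of these 5 genes CTRL P90 replicate 3 was the highest of all 6 libraries. That library was also the only CTRL P90 library with counts of Y-linked genes. Nppa, the atrial natriuretic peptide, did not pass, at 479.7, 237 and 50.4 CPM at P14 and 156, 183 and 213 CPM at P90. The study's methods take CMs from the apex, and the part of atrial cells in this rise was not tested.

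The functional list with the lowest median was that of the division machinery. Of 36 genes of mitosis and cytokinesis, 28 were tested, 23 were called lower and 0 higher at P90, and their median log2 fold change was -3.59. Top2a, the topoisomerase that untangles sister chromatids, was at 5.12, 2.27 and 17.0 CPM at P14 and 0.0494, 0.728 and 0.152 CPM at P90 (log2 fold change -4.99 ± 0.98 (SE), adjusted p = 0.00599). Mki67, the coat protein of mitotic chromosomes, was at 6.61, 2.32 and 18.3 CPM at P14 and 0.346, 0.728 and 0.913 CPM at P90 (14.3-fold lower, adjusted p = 0.00689). For both, the P14 libraries were far apart, with replicate 3 the highest and replicate 2 the lowest, yet no P14 library fell to the P90 range. Prc1 and Racgap1, which build the central spindle, were 12.5-fold and 13.7-fold lower, and Anln, the anillin of the contractile ring, was 16.1-fold lower. Foxm1, a transcription factor of late cell cycle genes, was 14.5-fold lower at P90. Of the 23 calls, 10 held under every alternative. Cdk1, the mitotic kinase, was 11.7-fold lower (adjusted p = 0.0106) and lost its call without CTRL P90 replicate 1 (adjusted p = 0.0502). Fibroblast and endothelial markers, with 6 of 11 and 8 of 12 called lower, were also lowest among P14 libraries in replicate 2, and the part of dividing cells of other types in the fall of mitosis genes was not tested. All these levels are low, and at P90 Top2a stood on 1, 7 and 2 counts, Cdc20 on 2, 1 and 3 and Ccna2 on 5, 5 and 0. The filter on low counts keeps a gene expressed at 1 stage alone. Members near the floor at P90 were therefore tested through their P14 counts and could hardly be called higher. Their direction was partly set by that filter, so the counts and the median of this list describe only.

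The promoters of these genes are shown because 23 of the 28 tested were called lower, with the limit of the filter given above. Late cell cycle promoters are known to carry a CHR element (cell cycle homology region), bound by the DREAM and MuvB complexes, and CCAAT boxes, bound by NF-Y. In 300-base promoters of RefSeq (GRCm38.p6, 250 bases before to 50 after the annotated start), the letters TTTGAA stood on either strand in 18 of the 24 list promoters with an entry (75.0%) and in 18.1% of the promoters of all 27025 genes of that table. The letters CCAAT stood in 79.2% of the list and 37.9% of all, and both together in 70.8% and 7.12%. CCAAT alone was not particular to this list. It stood in 70.6% of circadian clock, 55.0% of ketone body and amino acid, 32.3% of complex I and 22.7% of mitochondrial regulator promoters. Both together stood in at most 10.0% of each of those lists. The list of DNA replication genes, the other cell cycle list with falls, was not compared. Only 23 of its 29 tested genes had an entry, under the 80% required. Of the mitosis list, Ccna2, Kif20a, Foxm1 and Incenp had no entry. Below are the 150 bases before the start of 5 members, written 5′ to 3′ on the gene's strand, with TTTGAA (or TTCAAA) and CCAAT (or ATTGG) in capitals.
Cdk1 (chr10:69352913-69353062, minus strand): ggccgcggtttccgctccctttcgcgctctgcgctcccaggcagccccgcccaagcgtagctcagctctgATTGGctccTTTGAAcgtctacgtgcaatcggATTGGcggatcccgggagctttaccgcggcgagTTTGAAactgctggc
Top2a (chr11:99024190-99024339, minus strand): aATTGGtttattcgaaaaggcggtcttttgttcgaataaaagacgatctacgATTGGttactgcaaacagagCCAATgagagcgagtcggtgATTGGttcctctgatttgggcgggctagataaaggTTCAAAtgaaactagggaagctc
Cdc20 (chr4:118437344-118437493, minus strand): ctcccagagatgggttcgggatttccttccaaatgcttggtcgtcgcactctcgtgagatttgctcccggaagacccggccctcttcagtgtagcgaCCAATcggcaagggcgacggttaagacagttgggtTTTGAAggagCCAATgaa
Ube2c (chr2:164769779-164769928, plus strand): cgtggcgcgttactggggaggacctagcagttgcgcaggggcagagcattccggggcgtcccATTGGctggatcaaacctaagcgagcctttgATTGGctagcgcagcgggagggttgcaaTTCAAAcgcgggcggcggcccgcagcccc
Ccnb2 (chr9:70421555-70421704, minus strand): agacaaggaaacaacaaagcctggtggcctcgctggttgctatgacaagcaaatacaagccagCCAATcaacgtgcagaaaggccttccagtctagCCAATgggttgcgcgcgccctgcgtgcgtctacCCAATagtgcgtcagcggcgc
The first 4 hold the CHR letters within 71 bases of the start (at 71 and 15 bases before it in Cdk1, 23 in Top2a, 18 in Cdc20 and 29 in Ube2c) and at least 2 CCAAT matches. Ccnb2, the cyclin B2 gene, has 3 CCAAT matches, at 87, 54 and 21 bases before the start, and no TTTGAA in these bases, and the 3 lie at equal distances. Its RNA was at 2.63, 1.09 and 7.76 CPM at P14 and 0.0494, 0.312 and 0.533 CPM at P90 and fell with the rest, although the call was lost without CTRL P90 replicate 1 (adjusted p = 0.0638). A match describes letters and is not a tested site.

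Genes of DNA replication were less uniform. Of 29 tested, 11 were called lower and 1 higher, with a median log2 fold change of -0.56, and 2 of these calls held under every alternative, the rise and the fall of Gins2, a subunit of the replicative helicase complex (6.53-fold lower). The gene that rose was Gmnn, which encodes geminin, the inhibitor of origin licensing, at 12.6, 17.9 and 19.3 CPM at P14 and 61.5, 50.3 and 67.1 CPM at P90 (3.60-fold higher, adjusted p = 2.73e-04). Among 22 cyclins of G1 and cell cycle inhibitors, 3 rose and 4 fell. That is 31.8% called, near the 29.3% of all genes tested, so the count says nothing particular about the list. Cdk6, a G1 kinase, fell from 14.8, 9.05 and 12.4 CPM to 2.91, 3.33 and 2.59 CPM (4.12-fold lower, adjusted p = 5.78e-04) and Cdk2, the kinase of S phase entry, was 2.35-fold lower. Ccng1, a cyclin induced by p53, was 3.12-fold higher and Rbl2, the pocket protein p130 that holds DREAM targets silent in resting cells, was 2.01-fold higher, at 52.4, 44.8 and 55.2 CPM at P14 and 102, 102 and 103 CPM at P90. Trp53, the gene of p53 itself, was 1.78-fold lower.

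Imprinted genes are expressed from 1 parental copy, and many of them promote fetal growth and shut down together after birth. Of 25 listed, 16 were tested, 11 were called lower and 2 higher at P90, with a median log2 fold change of -1.91. Plagl1, a zinc finger factor regarded as a hub of this network, fell from 33.6, 28.1 and 24.9 CPM to 2.62, 2.29 and 2.66 CPM (11.3-fold lower, adjusted p = 1.66e-05), with libraries of each stage close together. Igf2, the fetal insulin-like growth factor (chromosome 7, 142650768 to 142661035, mm10, minus strand), was at 44.2, 27.6 and 15.4 CPM at P14 and 1.68, 0.936 and 0.989 CPM at P90 (22.9-fold lower, adjusted p = 2.43e-04). H19, the noncoding RNA beside it that is expressed from the other parental copy (chromosome 7, 142575532 to 142578146), was at 9.33, 8.24 and 1.8 CPM and 0.198, 0.208 and 0.304 CPM (26.9-fold lower). The P14 and P90 libraries did not overlap for either gene of this locus. Peg3 was 8.88-fold, Mest 7.01-fold, Ndn 4.08-fold, Sgce 3.46-fold and the amino acid transporter gene Slc38a4 2.83-fold lower. Mest stood on 564, 159 and 254 counts at P14, lowest in replicate 2 like the fibroblast and endothelial markers. The 2 that rose, Igf2r, the receptor that clears Igf2, and Impact, did not hold under every alternative. Igf2r lost its call without CTRL P90 replicate 1 (adjusted p = 0.0520). Impact lost it under 6 alternatives. Nearby in the same pathway, Igf1 was 3.95-fold, Irs2, the insulin receptor substrate, 4.81-fold and Igfbp4, an IGF binding protein, 4.69-fold lower. In the list of IGF, insulin and mTOR signalling, 4 genes rose and 6 fell of 23 tested. The part of other cells in the falls of imprinted and IGF genes was not tested.

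**Figure D3:**
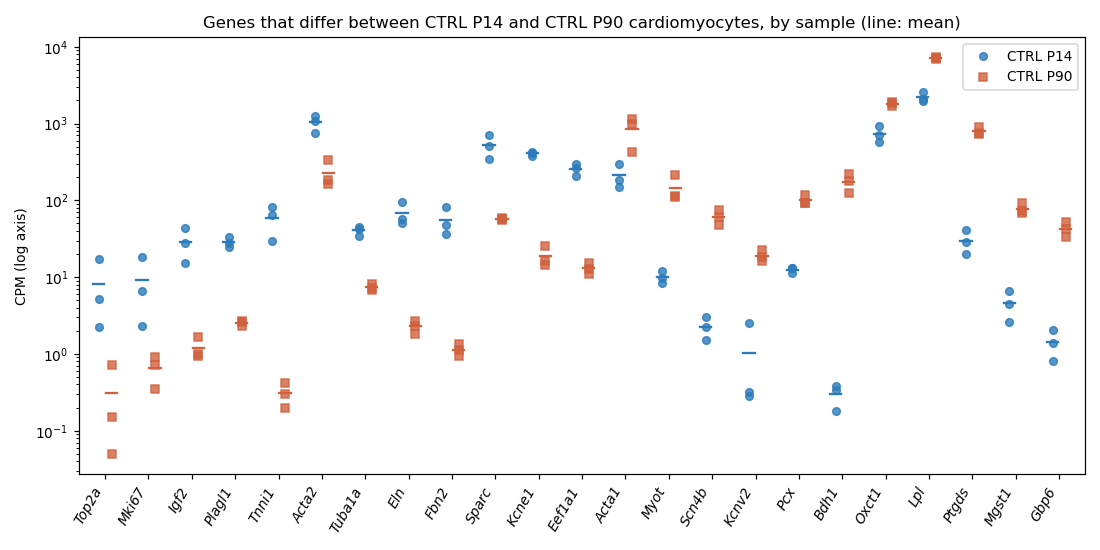
CPM (log axis) of 23 genes in each CTRL library, with P14 as blue circles, P90 as red squares and a line at each mean. For each gene the 3 P14 and the 3 P90 libraries do not overlap, and Bdh1 goes from at most 0.379 CPM at P14 to at least 123 CPM at P90.

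In the sarcomere, 1 fetal isoform was nearly lost, and transcripts of several abundant adult proteins overlapped between stages. Tnni1, the slow skeletal troponin I that the fetal heart uses (chromosome 1, 135799421 to 135810989, plus strand), was at 64.0, 29.2 and 81.6 CPM at P14 and 0.198, 0.416 and 0.304 CPM at P90, where each library had 4 counts. This was the largest fall among called genes with a mean of at least 5 CPM over the 6 libraries (202-fold lower, log2 fold change -7.66 ± 0.52 (SE), adjusted p = 5.32e-05). Tnni3, the cardiac troponin I, was at 4789, 6587 and 5739 CPM and 6572, 5466 and 6782 CPM and the groups overlapped. Myh6, the alpha myosin heavy chain, was at 55583, 44494 and 60145 CPM and 58164, 50043 and 51028 CPM, and Myl2, the ventricular regulatory light chain, at 4473, 6114 and 4025 CPM and 5111, 5023 and 4816 CPM, again with overlap. Myh7, the beta myosin heavy chain of the fetal heart, was at 327, 855 and 227 CPM at P14 and 344, 259 and 247 CPM at P90, where only CTRL P14 replicate 2 stood apart and the difference did not pass (adjusted p = 0.213).

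Of 19 thin filament genes tested, 2 were called higher and 9 lower (57.9% called). Of 19 thick filament genes tested, 5 were called higher and 1 lower (31.6% called, against 29.3% of all genes tested). Of these 5, Myl7, Myl4 and Mybphl are the atrial markers given above, highest in CTRL P90 replicate 3, and they were the calls of the thick filament list that held under every alternative. Acta2, the smooth muscle actin expressed in the immature heart, fell from 1097, 1263 and 764 CPM to 332, 165 and 186 CPM (4.57-fold lower, adjusted p = 8.91e-04). Acta1, the skeletal actin, rose from 182, 302 and 152 CPM to 994, 423 and 1143 CPM (4.03-fold higher, adjusted p = 0.00466), with CTRL P90 replicate 2 the lowest at P90. Tnnt1, the slow skeletal troponin T, was 2.51-fold lower. Actc1, the cardiac actin, was also called lower (log2 fold change -0.55), but not under every alternative. At the Z-disc, the plate that anchors thin filaments, 8 genes rose and 2 fell of 22. Myot, which encodes myotilin, a crosslinker of actin, rose from 9.74, 12.2 and 8.38 CPM to 115, 111 and 214 CPM (14.5-fold higher, adjusted p = 6.36e-05). Tcap, the titin cap, was 1.52-fold higher, at 1107, 1044 and 1072 CPM at P14 and 1565, 1583 and 1763 CPM at P90, and Flnc, filamin C, was 1.75-fold higher. Bag3, a cochaperone that clears damaged filamin, was 1.70-fold higher.

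Isoform pairs were then compared within each library as the log2 ratio of counts per kb of exon, which does not depend on library scaling. Of 20 pairs, 14 had P14 and P90 ratios that did not overlap, 9 with a lower and 5 with a higher ratio of the first gene at P90, set against 45.0% of single genes tested without overlap. An exact two-sided permutation test of 3 against 3 cannot go below p = 0.1, and after adjustment over the 20 pairs the smallest value was 0.143, so no pair passed. Tnni1/Tnni3 went from -7.16 ± 0.94 (SD, n = 3) at P14 to -14.65 ± 0.67 at P90. The 3 pairs of cytochrome c oxidase subunits had lower ratios, toward the heart and muscle isoform, at P90. Cox6a1/Cox6a2 went from -2.69 ± 0.10 to -4.41 ± 0.11, Cox7a2/Cox7a1 from -0.25 ± 0.27 to -1.37 ± 0.15, and Cox8a/Cox8b from -1.45 ± 0.28 to -2.66 ± 0.06, all SD with n = 3. Ldha/Ldhb, the lactate dehydrogenase subunits, went from -0.43 ± 0.07 to -1.17 ± 0.12, and Cpt1a/Cpt1b, the carnitine palmitoyltransferases that admit fatty acids to mitochondria, from 2.42 ± 0.28 to 1.82 ± 0.28. Cpt1b stood on 366, 303 and 311 counts at P14 and 287, 126 and 164 at P90. How reads shared between genes were assigned is not given in the sources used here, so the level of the Cpt1a/Cpt1b ratio is uncertain. The 5 pairs with a higher ratio of the first gene at P90 were Acta1/Actc1, from -7.28 ± 0.39 to -4.78 ± 0.65, the atrial light chain pairs Myl7/Myl2, from -13.05 ± 2.09 to -7.58 ± 0.87, and Myl4/Myl3, from -11.40 ± 0.20 to -8.87 ± 0.84, the glucose transporters Slc2a1/Slc2a4, from -5.22 ± 0.15 to -4.82 ± 0.13, and the phosphoglycerate mutases Pgam1/Pgam2, from -6.66 ± 0.49 to -6.25 ± 0.04. Myh7/Myh6 overlapped, at -7.05 ± 1.21 and -7.56 ± 0.15.

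**Figure D4:**
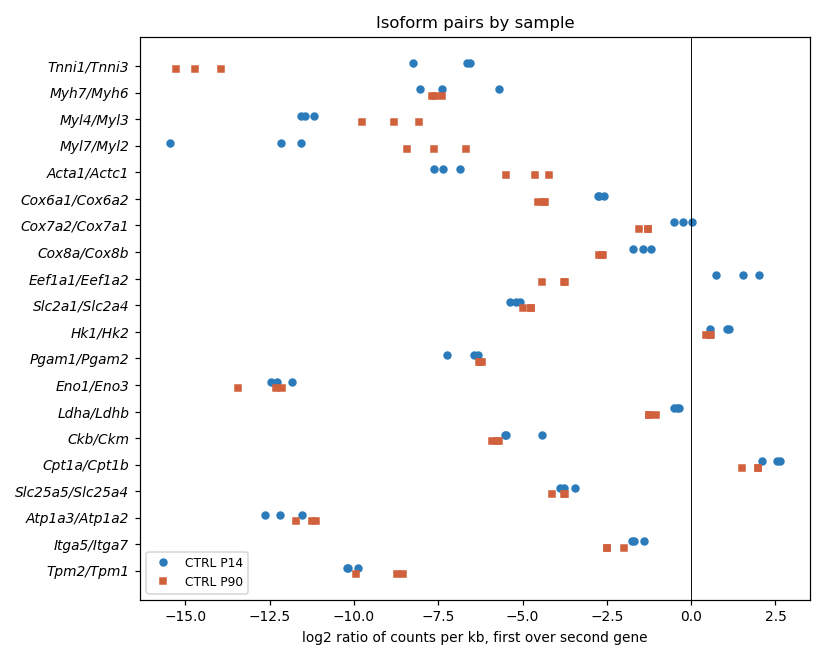
Log2 ratio of counts per kb of the first over the second gene for 20 isoform pairs (rows), with 1 point per CTRL library, P14 as blue circles and P90 as red squares. Points left of 0 have more of the second gene, and Tnni1/Tnni3 shifts furthest, by -7.49.

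Genes of the cytoskeleton outside the sarcomere were mostly lower. Of 22 genes of the fetal cytoskeleton tested, 14 were called lower and 2 higher, with a median log2 fold change of -0.81. Tuba1a, an alpha tubulin of growing cells, fell from 45.3, 34.6 and 42.2 CPM to 6.82, 8.11 and 7.15 CPM (5.55-fold lower, adjusted p = 3.68e-05). Vim, the vimentin of intermediate filaments, was 3.97-fold, Dbn1, an actin binding protein, 11.6-fold and Marcksl1, a regulator of cortical actin, 10.0-fold lower. Vim is also abundant in fibroblasts and endothelial cells, whose markers fell too. Dbn1 and Marcksl1 were lowest among P14 libraries in replicate 2, at 42 and 56 counts, as the sums of those markers were. The part of other cells in the falls of these genes was not tested. Cnn2, a calponin, rose (1.83-fold).

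Many genes of the extracellular matrix fell. The lists were drawn up after the changes were known, so their counts describe and support nothing. Of 32 genes of elastic fibres and matricellular proteins tested, 25 were called lower and 0 higher, with a median log2 fold change of -1.89, and of 26 collagen genes 16 were called lower and 0 higher, with a median of -1.59. Eln, the gene of elastin, fell from 96.4, 50.6 and 57.2 CPM to 2.32, 2.70 and 1.83 CPM (30.0-fold lower, adjusted p = 3.40e-05). Fbn2, the fibrillin of developing tissue, fell from 81.2, 36.9 and 47.9 CPM to 1.33, 0.936 and 1.14 CPM (47.0-fold lower, adjusted p = 3.68e-05), while Fbn1, its adult relative, was 4.03-fold lower. Sparc, a secreted collagen binder, fell from 707, 507 and 350.4 CPM to 54.8, 58.5 and 57.2 CPM (9.19-fold lower). The basement membrane chains Col4a1 and Col4a2, which share a promoter and are made by CMs as well as by vessels, were 2.78-fold and 2.61-fold lower, at 835, 559.8 and 682 CPM at P14 and 241, 239.9 and 267 CPM at P90 for Col4a1.

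These falls can be set beside the fibroblast and endothelial markers. In CTRL P14 replicate 2, the P14 library with the lowest sums of both, Eln was 50.6 CPM, Fbn2 36.9 CPM and Sparc 507 CPM, each above every P90 library. Col4a1 was 559.8 CPM in that library, also above the P90 range. The fibroblast collagens Col3a1 and Col1a2 were at 44.2 and 11.1 CPM there, against 16.6, 23.2 and 18.6 CPM and 4.25, 6.76 and 6.32 CPM at P90. Pdgfra, a defining receptor of fibroblasts, was at 3.99, 0.947 and 3.65 CPM at P14 and 2.22, 3.85 and 1.52 CPM at P90 and overlapped (adjusted p = 0.803), and Dcn, decorin, at 47.7, 27.0 and 21.0 CPM and 13.4, 21.2 and 18.3 CPM, overlapped too. Over the whole fibroblast list, 10 of 11 markers had a negative log2 fold change, 6 were called lower and the median was -1.52. All 12 endothelial markers were negative, with a median of -0.85. The part of other cells in the fall of matrix genes was not tested. Among 29 integrins and basement membrane receptors tested, 5 rose and 14 fell. Itga9 was 2.29-fold and Lama2, the laminin chain of muscle, 1.87-fold lower, whereas Lama5 (2.78-fold) and Itgav (1.81-fold) were higher.

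Fuel use was described next. After weaning the heart draws on fatty acids, ketone bodies and branched-chain amino acids (leucine, isoleucine and valine), each broken down in mitochondria to acetyl or succinyl units. The list of ketone body and branched-chain amino acid genes had the highest share of rises among the functional lists of at least 20 tested members, with 18 of 25 called higher and 1 lower, and 15 of the 18 rises held under every alternative. The median log2 fold change was 0.79.

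Bdh1, the hydroxybutyrate dehydrogenase that starts the use of ketone bodies (chromosome 16, 31422297 to 31458901, plus strand, exons of 3333 bases in all), was almost absent at P14, at 0.181, 0.379 and 0.337 CPM or 4, 8 and 6 counts, and stood at 178, 123 and 219 CPM at P90. This was the largest rise among called genes with a mean of at least 5 CPM over the 6 libraries (log2 fold change 9.16 ± 0.33 (SE), adjusted p = 5.26e-06). Oxct1, the transferase of the next and rate-setting step, was already high and rose from 584, 941 and 703 CPM to 1870.1, 1673 and 1928 CPM (2.46-fold higher, adjusted p = 0.00101). Acat1, the last step, did not pass, at 904, 1106 and 979 CPM and 1100.1, 1058 and 1021 CPM.

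In branched-chain amino acid breakdown the rises were smaller and were found at several steps. Bcat2, the mitochondrial aminotransferase of the first step, rose from 85.5, 90.5 and 84.8 CPM to 209, 176 and 199 CPM (2.24-fold, adjusted p = 2.25e-04). The subunits of the branched-chain ketoacid dehydrogenase Bckdha, Bckdhb and Dbt were 2.02-fold, 2.54-fold and 2.26-fold higher. Its activating phosphatase gene Ppm1k rose from 35.6, 45.8 and 33.5 CPM to 128, 142 and 127 CPM (3.46-fold, adjusted p = 9.01e-05), while Bckdk, the inhibiting kinase, was at 168, 180.5 and 169.9 CPM and 185, 206 and 217 CPM and did not pass (adjusted p = 0.143). In the leucine branch, Ivd was 2.89-fold higher with 203, 232 and 229 CPM at P14 and 641, 620.0 and 660.3 CPM at P90, and Mccc1, Mccc2 and Auh were 1.56-fold, 1.90-fold and 1.56-fold higher. In the isoleucine and valine branches Acadsb, Aldh6a1, Pcca and Mut were 2.99-fold, 2.68-fold, 2.09-fold and 1.72-fold higher.

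**Figure D5:**
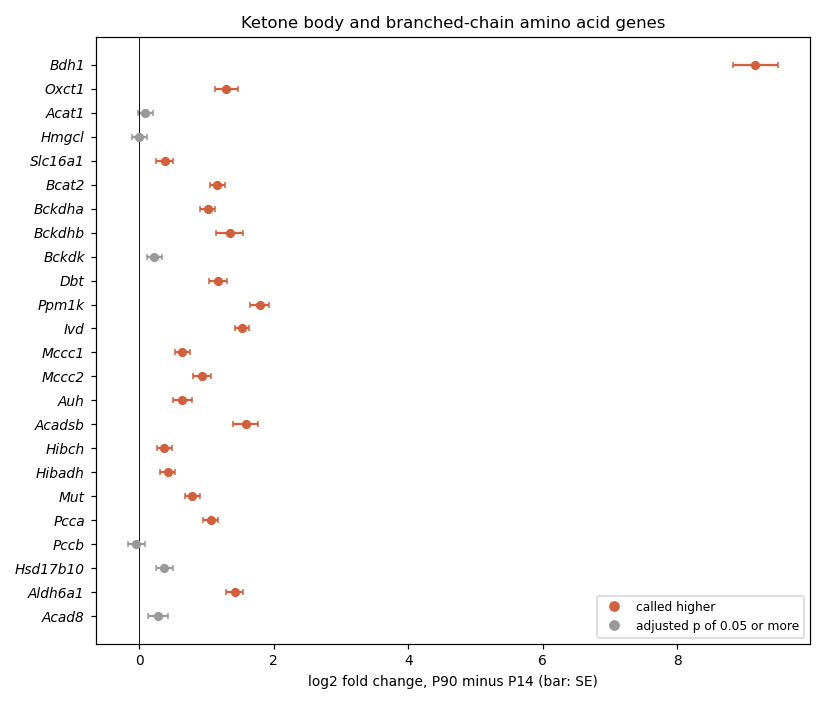
Log2 fold change (P90 minus P14) with its SE for 24 of the 25 genes of ketone body and branched-chain amino acid metabolism, ordered as in the list from ketone bodies at the top. The 18 genes called higher are red, the 6 that did not pass are grey, and the 1 called lower is not plotted.

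Fatty acid genes were split. Of 38 tested, 8 were called higher and 6 lower, a share near the background, with a median log2 fold change of 0.01. Lpl, the lipase that frees fatty acids from circulating triglycerides, rose from 1997, 2549 and 2101 CPM to 6844, 7250.3 and 7352 CPM (3.23-fold higher, adjusted p = 5.88e-05), and Cd36, the fatty acid transporter, was 1.49-fold higher. Angptl4, a secreted inhibitor of that lipase, fell from 108, 57.0 and 118 CPM to 24.0, 6.55 and 3.81 CPM (7.91-fold lower, adjusted p = 0.00561). Ucp3, a mitochondrial uncoupling protein, was 2.01-fold lower and Acot1, an acyl-CoA thioesterase, 2.37-fold lower. Pdk4, the kinase that spares glucose, was 2.43-fold lower but lost its call without CTRL P90 replicate 3 (adjusted p = 0.0520). Ppara itself overlapped, at 74.8, 82.4 and 52.4 CPM and 61.2, 74.2 and 89.1 CPM. Among enzymes of the oxidation spiral, Hadha was at 1306, 1417 and 1519 CPM and 1560.0, 1334 and 1223 CPM and did not pass.

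Glucose genes were called more often as higher than lower. Of 25 genes of glucose uptake and glycolysis 8 rose and 2 fell, and of 21 genes of glycogen metabolism 7 rose and 3 fell. Slc2a4, the insulin-regulated glucose transporter GLUT4, rose from 360.5, 404 and 336 CPM to 1064, 819 and 827 CPM (2.46-fold, adjusted p = 3.76e-04), and Slc2a1, the fetal transporter GLUT1, rose as well, from 9.69, 9.95 and 7.31 CPM to 30.8, 28.0 and 27.9 CPM (3.21-fold, adjusted p = 2.23e-04). Pfkp, the platelet isoform of phosphofructokinase, was 2.07-fold lower. Pfkfb1, which makes the activator of phosphofructokinase, was 9.82-fold higher. For glycogen, Gys1, the muscle synthase, was 1.59-fold, Pygm, the muscle phosphorylase, 1.51-fold and Gaa, the lysosomal glucosidase, 2.26-fold higher.

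Of 30 genes of pyruvate entry and the TCA cycle, 11 rose and 1 fell. Pcx, pyruvate carboxylase, which refills the cycle, rose from 11.2, 13.4 and 13.1 CPM to 119, 92.1 and 91.6 CPM (8.03-fold higher, adjusted p = 1.66e-05) and was the largest change in that list. Suclg2, a succinyl-CoA ligase subunit, was 1.94-fold higher, and Ogdh, the oxoglutarate dehydrogenase, 1.55-fold higher, whereas Cs, citrate synthase, was at 2213, 2680.1 and 2325 CPM and 2455, 2529 and 2457 CPM and overlapped. Brp44l, which encodes a subunit of the mitochondrial pyruvate carrier, was 1.84-fold higher.

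Few genes of the respiratory chain were called. Of 36 complex I genes 2 rose and 0 fell, with a median of 0.22, and of 76 mitochondrial ribosomal protein genes 4 rose and 0 fell, with a median of 0.11 that turned to -0.01 when libraries were scaled to total counts. Both shares lie below those of all genes. Of 13 genes of complexes II and III 3 were called higher and 0 lower. That is 23.1% called, against 29.3% called and 14.5% called higher of all genes tested. Of 17 genes of complex IV 2 were called higher and 1 lower (17.6% called), and of 16 genes of the ATP synthase 1 higher and 1 lower (12.5% called). No call in these 4 lists of respiratory complexes held under every alternative. Of 23 regulators of mitochondrial biogenesis tested, 11 were called higher and 1 lower. Esrrb and Esrrg, estrogen-related receptors that drive oxidative genes, were 3.32-fold and 1.58-fold higher, Rxrg, the partner of PPAR and thyroid receptors, 1.59-fold, and Polg and Tfb2m, which copy and transcribe mitochondrial DNA, 1.82-fold and 1.78-fold. The fusion proteins Mfn1 and Opa1 were 1.45-fold and 1.44-fold higher. The coactivator Ppargc1b was the member called lower (1.44-fold), and Ppargc1a, at 219, 394 and 225 CPM and 179, 217 and 188 CPM, did not pass (adjusted p = 0.103). The deposited counts hold 0 genes of the mitochondrial chromosome itself, so these could not be analysed.

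Excitation genes changed sharply at single subunits. Of 22 potassium channel genes tested 6 rose and 5 fell, and of 20 sodium and pacemaker channel and pump genes 7 rose and 3 fell. Kcne1, the beta subunit of the slow delayed rectifier, fell from 381, 417 and 427 CPM to 16.5, 25.3 and 14.5 CPM (22.0-fold lower, adjusted p = 1.54e-05), with the libraries of each stage close together, while Kcnq1, the pore subunit it joins, was at 80.3, 57.1 and 78.8 CPM and 97.5, 88.6 and 78.0 CPM and overlapped. Kcnv2, a silent modifier of Kv2 channels, rose from 0.317, 2.51 and 0.281 CPM to 22.4, 18.1 and 16.4 CPM (17.9-fold higher, adjusted p = 0.00168). Kcnip2, the subunit that brings transient outward channels to the membrane, was 1.71-fold higher, and Kcna4, the transient outward channel of immature cells, 3.50-fold lower.

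Scn4b, a beta subunit of the sodium channel, rose from 2.22, 3.03 and 1.52 CPM to 74.6, 48.4 and 60.0 CPM (26.8-fold higher, adjusted p = 1.81e-05). Scn4a, the sodium channel of skeletal muscle, was 4.39-fold higher. Cacna1g, the T-type calcium channel of immature cells, was 2.30-fold lower, at 53.2, 42.6 and 49.4 CPM and 21.8, 19.1 and 22.1 CPM. Of 23 genes of calcium handling by the sarcoplasmic reticulum, 6 rose and 4 fell (43.5% called, against 29.3% of all genes tested). Atp2a2, the SERCA2 pump that refills the store, rose from 20739.6, 20609.5 and 22631 CPM to 35755, 30769 and 30969 CPM (1.52-fold higher, adjusted p = 0.00363), S100a1, an activator of the pump and the release channel, was 2.14-fold higher, and Itpr2, an inositol trisphosphate receptor, 2.77-fold lower. Casq1, the skeletal calsequestrin, was 5.40-fold lower, while Casq2, the cardiac form, overlapped at 1828, 1820.2 and 1973 CPM and 1973, 1767 and 1743 CPM. Ryr2, the release channel, overlapped, at 1493, 1260.3 and 1733 CPM and 1417, 1382 and 1517 CPM. In the intercalated disc list 3 genes rose and 10 fell of 25, and Gja1, the main gap junction gene, overlapped at 1269.6, 879 and 1209 CPM and 1121, 1352 and 1079.9 CPM.

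Most chaperone genes rose. Of 29 genes of the heat shock and unfolded protein responses, 16 were called higher and 2 lower (62.1% called, against 29.3% of all genes tested). Their median log2 fold change was 0.65, and 11 rises held under every alternative. Cryab, the alpha B crystallin that guards desmin and titin, rose from 623, 825 and 616 CPM to 1872, 1456 and 1795 CPM (2.48-fold, adjusted p = 5.64e-04). Hspa5, the chaperone BiP of the endoplasmic reticulum, rose from 986, 672 and 978 CPM to 1619, 1672 and 1738 CPM (1.91-fold, adjusted p = 0.00279). Hsph1 and Dnajb1, a nucleotide exchanger and a cochaperone of Hsp70, were 4.18-fold and 2.89-fold higher, and Hspb6 and Hspb8, small heat shock proteins of muscle, 1.66-fold and 1.73-fold. CMs were isolated by enzyme perfusion and sorted, and the part of that handling in stress genes was not tested.

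Immediate early genes did not share a direction, with 4 called higher and 5 lower of 22 (40.9% called, against 29.3% of all genes tested). Egr1, a zinc finger factor induced within minutes of stimulation, rose from 30.9, 12.4 and 34.5 CPM to 169, 218 and 176 CPM (7.25-fold, adjusted p = 5.33e-04) and Junb and Ier2 were 2.77-fold and 2.49-fold higher, while Nr4a1, an orphan nuclear receptor, fell from 316, 207 and 241 CPM to 36.0, 69.6 and 111 CPM (3.54-fold lower). Fos overlapped, at 101, 61.0 and 149 CPM and 108, 196 and 188 CPM.

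For translation, 2 pairs of paralogs moved in opposite directions. Eef1a1, the elongation factor of most cells, fell from 294, 209.9 and 263 CPM to 12.8, 11.1 and 15.3 CPM (19.5-fold lower, adjusted p = 1.11e-05), and Eef1a2, its muscle and nerve paralog, rose from 83.0, 143 and 103 CPM to 317, 169.9 and 237 CPM (2.20-fold, adjusted p = 0.0101). Rpl3, a core protein of the large ribosomal subunit, fell from 103, 59.5 and 83.7 CPM to 25.3, 21.9 and 14.0 CPM (4.0-fold lower), and Rpl3l, its muscle paralog, rose from 79.0, 155 and 60.7 CPM to 289, 268 and 299 CPM (2.90-fold, adjusted p = 0.00550). In the cytosolic ribosome list 3 genes were higher and 12 lower of 78 (19.2% called, against 29.3% of all genes tested), with a median of -0.04. Eef1a1 and Rpl3 have many processed copies in the genome, and how reads that map to several places were counted is not given in the sources used here, so their levels are uncertain.

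Detoxifying enzymes and interferon-inducible GTPases were listed after their changes were known. Of 15 glutathione S-transferase genes tested, 8 were called higher and 0 lower. Gstm1 rose from 61.2, 67.9 and 45.3 CPM to 286, 278 and 256 CPM (4.70-fold, adjusted p = 5.55e-05), and Gstk1, the mitochondrial form, was 4.60-fold higher. Members of the Gstm family resemble each other closely, so reads may be split between them. Mgst1, a microsomal transferase, rose from 4.53, 6.68 and 2.64 CPM to 68.7, 73.7 and 92.4 CPM (16.8-fold, adjusted p = 5.55e-05). Of 15 aldehyde dehydrogenase genes 6 rose and 3 fell. Aldh2, which clears acetaldehyde and lipid aldehydes in mitochondria, was 3.15-fold higher, at 86.4, 91.3 and 99.2 CPM and 313, 264 and 295 CPM, and Aldh1b1 2.91-fold lower.

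Of 13 interferon-inducible GTPases, 7 were called higher and 0 lower (53.8% called). Of 32 genes of antigen presentation and the interferon response, 8 were called higher and 0 lower (25.0% called). Over all genes tested, 29.3% were called and 14.5% were called higher. Gbp6 rose from 1.40, 0.805 and 2.08 CPM to 33.7, 51.9 and 42.9 CPM (30.2-fold, adjusted p = 3.44e-05) and Iigp1 from 10.0, 15.7 and 19.1 CPM to 51.0, 85.7 and 67.8 CPM (4.56-fold). B2m, the light chain of MHC class I, rose from 22.1, 22.6 and 18.7 CPM to 95.1, 220.4 and 52.4 CPM (5.78-fold, adjusted p = 0.00357), with CTRL P90 replicate 2 the highest. H2-K1, a class I heavy chain, was also highest in that library. Of 16 macrophage and leukocyte markers, given above, 7 were tested and none passed in either direction. Their list summed to 17.4 CPM at most, and the part of such cells in these rises was not tested.

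Circadian genes, whose RNA levels cycle over the day, were called in both directions. The hour of collection is not given in the sources used here, and its part in these values was not tested. Of 21 tested, 4 rose and 6 fell (47.6% called, against 29.3% of all genes tested). Per1, Per2 and Per3, the repressors of the clock, were 3.81-fold, 3.53-fold and 4.18-fold lower at P90. Arntl, which encodes the activator BMAL1, rose from 10.7, 11.3 and 9.84 CPM to 33.3, 46.2 and 50.8 CPM (4.08-fold, adjusted p = 1.45e-04), and Nr1d1, its repressor, was 2.60-fold higher. The output factor Hlf was 2.52-fold lower. In the glucocorticoid list 4 rose and 4 fell of 18 (44.4% called). Fkbp5, which tempers the receptor, was 4.04-fold higher and Tsc22d3, a direct target, 1.95-fold lower.

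Of 31 transcription factors of the CM tested, 0 were called higher and 6 lower. That is 19.4% called, all lower, against 29.3% called and 14.9% called lower of all genes tested. Gata4 was at 295, 231 and 319 CPM and 312, 264 and 285 CPM, Nkx2-5 at 41.2, 44.9 and 34.5 CPM and 64.0, 33.2 and 39.5 CPM and Mef2c at 80.9, 74.2 and 74.4 CPM and 87.8, 88.6 and 77.9 CPM, with overlap in each. Gata6 fell from 170.1, 151 and 139 CPM to 81.5, 78.9 and 87.4 CPM (1.86-fold lower, adjusted p = 8.61e-04). Myocd, the gene of myocardin, a coactivator of serum response factor, was 1.63-fold lower, at 199.6, 179.9 and 153 CPM and 104, 109.5 and 115 CPM, and Smyd1, a muscle methyltransferase, fell from 1111, 697 and 419 CPM to 231, 219.9 and 295 CPM (2.99-fold lower). Nppb, the B-type natriuretic peptide, rose from 174, 113 and 65.7 CPM to 364, 233 and 398 CPM (2.82-fold, adjusted p = 0.00949), and Ankrd23, a stretch-sensing partner of titin, was 2.47-fold higher.

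Among genes outside these groups, the naming rule brought up Ptgds, which encodes prostaglandin D synthase, at 29.0, 40.9 and 20 CPM at P14 and 914, 755 and 738 CPM at P90 (26.7-fold higher, adjusted p = 1.81e-05). Ces1d, a carboxylesterase that hydrolyses stored lipid, rose from 14.5, 26.2 and 16.0 CPM to 279.6, 299 and 212 CPM (13.9-fold). Cpxm2, which encodes a carboxypeptidase-like protein, rose from 0.136, 0.710 and 0.843 CPM to 18.9, 26.6 and 59.1 CPM (62.9-fold), and Cdh4, the cadherin of retina and brain, was 13.4-fold higher. Sntb1, a syntrophin of the dystrophin complex, fell from 39.1, 21.5 and 23.3 CPM to 1.83, 1.56 and 0.913 CPM (19.1-fold lower), Gem, a GTPase that restrains calcium channels, from 12.9, 23.8 and 12.1 CPM to 0.346, 1.46 and 1.14 CPM (18.2-fold), Lpar3, a lysophosphatidic acid receptor, from 13.8, 15.3 and 11.0 CPM to 1.14, 1.25 and 0.989 CPM (11.9-fold) and Ngfrap1 from 18.7, 19.8 and 20 CPM to 1.88, 1.04 and 0.685 CPM (15.3-fold). The groups did not overlap in any of these. Cntn2, a contactin of Purkinje fibres, ranged from 3.08 to 42.0 CPM at P14 and lay at 0.790, 1.87 and 2.21 CPM at P90. It lost its call without CTRL P90 replicate 1 (adjusted p = 0.0669). Of 10 conduction system markers tested, Cntn2 among them, 1 was called higher and 3 lower, and the list summed to 78.8 to 184 CPM at P14 and 60.4 to 75.3 CPM at P90.

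Whether these stage differences depended on an intact Srf copy was tested in all 12 libraries as the stage difference in CTRL minus that in KO. Of 12841 genes, 228 (1.78%) passed. By list, 10 of 30 genes of pyruvate entry and the TCA cycle passed and 7 of 38 fatty acid genes. So did 7 of 76 mitochondrial ribosomal protein genes and 5 of 36 complex I genes. In the lists of glycolysis and of glycogen metabolism 0 of 25 and 0 of 21 passed. How these list counts hold under the alternatives was not tested. Of the genes named above, 9 passed, and those that did not include Bdh1 (adjusted p = 0.418), Tnni1 (adjusted p = 0.300), Kcne1 (adjusted p = 0.0889), Eln (adjusted p = 0.670), Igf2 (adjusted p = 0.970) and Top2a (adjusted p = 0.930), which does not show that the 2 genotypes matured alike. In KO libraries Bdh1 differed between stages by 8.25 and Tnni1 by -10.35 on the log2 scale, against 9.16 and -7.66 in CTRL.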

How the data were processed

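As described in the labels and the paper's methods, polyadenylated RNA of sorted CMs (10 ng of total RNA) was amplified with the SMART-Seq v4 kit in 8 PCR cycles and made into Nextera XT libraries. The authors aligned reads with STAR 2.5.3a to mm10 and deposited raw counts per gene from featureCounts (Subread 1.5.2), in a neonatal and an adult table; CASAVA 1.8 is also named in the submitters' notes. Strand and the handling of multimapping reads are not given in the sources used here. PCR duplicates are not independent molecules, so the floor of 3 counts covers counting error only.

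The tables were joined by gene symbol (23337 genes in both, with identical coordinates; 25 symbols had turned into dates). Counts of the 6 CTRL libraries were filtered with filterByExpr, scaled with TMM and tested with edgeR 4.0.16 (quasi-likelihood F-test, Benjamini-Hochberg adjusted p under 0.05, R 4.3.3). The filter keeps a gene expressed at 1 stage alone, so the direction of a gene near the floor at the other stage was partly set by it. The test of CTRL against KO stage differences used all 12 libraries. The scripts were checked on simulated counts. Alternatives were RLE, total count and upper quartile scaling, DESeq2 1.42.0, other filters, a replicate block, all 12 libraries, a gene length offset and leaving out each library. Isoform ratios used counts plus 0.5 per kb. Same-numbered libraries did not deviate together (correlations -0.07, -0.07 and -0.02), so replicate numbers were not used as pairs.

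The members and lists were chosen with earlier results of these data known. The matrix, glutathione S-transferase, aldehyde dehydrogenase and GTPase lists were added after all genes had been seen. Named genes were a fixed set of anchors, the 12 largest rises and 12 largest falls among called genes that averaged 5 CPM or more and whose groups did not overlap, the 4 largest called changes of each list, the isoform pairs and markers. Of 199 genes named, 70 fall outside this rule and were chosen after their values were seen. A few genes of the lists are counted but not reported by name here. Promoter letters came from the RefSeq table of GRCm38.p6.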

Additional observations from a re-analysis of the deposited data

Results flagged for a closer look

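In 9 named genes the stage difference in CTRL differed from that in KO by the edgeR test of the interaction over 12 libraries, and these are given as values (CTRL difference minus KO difference, on the log2 scale). Ces1d rose by 3.80 in CTRL and 6.15 in KO, a difference of -2.35 ± 0.36 (SE, adjusted p = 0.0156). Cacna1g differed by 1.24 ± 0.20 (adjusted p = 0.0210), with the larger fall in KO. Rxrg differed by -1.36 ± 0.26 (adjusted p = 0.0257), Gstk1 by -1.15 ± 0.26 (adjusted p = 0.0454), Tnni3 by -0.85 ± 0.19 (adjusted p = 0.0437) and Pcca by -0.57 ± 0.13 (adjusted p = 0.0468), each with the higher P90 over P14 value in KO. Flnc differed by 1.24 ± 0.26 (adjusted p = 0.0399), Ankrd23 by 0.93 ± 0.20 (adjusted p = 0.0399) and Esrrg by 0.70 ± 0.13 (adjusted p = 0.0252), each with the higher value in CTRL.

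Of 14 alternatives of this test, Ces1d passed in 12, Cacna1g in 11, Rxrg in 9, Esrrg in 7, Ankrd23 in 6, Flnc and Gstk1 in 5, and Tnni3 and Pcca in 4.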

How the results depend on the processing

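The number of genes called between CTRL P90 and CTRL P14 (3607) ranged from 2067 to 4768 when 1 library was left out, that of genes called higher (1779) from 1108 to 2338 and that of genes called lower (1828) from 959 to 2430. With replicate number as a block it was 3139, which lies within 1.5 times the count without it. The number of genes whose stage difference differed between CTRL and KO (228) was 916 with DESeq2, 687 with a replicate block within stage, and 4 to 377 with 1 library left out. It was 4 without P90 KO replicate 2 and 5 without CTRL P90 replicate 3. Y-linked genes had 3299 counts in CTRL P90 replicate 3 and 0 in each P90 KO library. The cause, sex included, was not tested.

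Named values changed sign in a few cases, none of them called in the main test. The median log2 fold change of the list of G1 cyclins and cell cycle inhibitors was -0.0075 with total counts and ranged from -0.025 to 0.17 when 1 library was left out, with the lowest value without CTRL P90 replicate 2. With 1 library left out, the log2 fold change of Myh7 ranged from -1.06 to 0.021 (the latter without CTRL P14 replicate 2), that of Nkx2-5 from -0.14 (without CTRL P90 replicate 1) to 0.37 and that of Nppa from -0.96 to 0.36 (the latter without CTRL P14 replicate 1). Ryr2 was at 0.29 with the gene length offset. Mitosis genes rest on few counts in each P90 library, and stage, table and time since injection cannot be told apart.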
